A study of Mus musculus with 6 samples.

Results

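The small leucine-rich proteoglycans were followed here through 9 genes, Dcn, Bgn, Aspn, Lum, Fmod, Prelp, Omd, Ogn and Podn, in RNA-seq libraries of the mouse submandibular gland. The genes were chosen by name, and all 9 were found among the 23366 gene symbols of the expression table. Epithelial cells had been isolated from this salivary gland in adult mice aged 12 weeks, giving 3 libraries of p63 knockout and 3 of wild-type genotype. The labels give no strain or sex and do not name the allele, the driver of the deletion or the number of mice behind a library. The 3 samples of a group may therefore share a source, and a p-value then speaks only of the spread among these libraries. The study's title names p63 (Trp63), a transcription factor of basal epithelial cells, and follistatin, an inhibitor of activin in the TGF-beta family, as its subjects. Values are TPM (length-corrected transcript abundance), which scale each library to the same total, so levels of different genes can be compared. They hold no record of sequencing depth.

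Small leucine-rich proteoglycans are secreted proteins built from a curved stack of leucine-rich repeats, and many carry sulfated sugar chains. They coat collagen fibrils and set fibril width and spacing, and several also bind growth factors such as TGF-beta. Fibroblasts and other connective tissue cells are their usual source, so in a gland their transcripts are taken to mark the stroma between the secretory units. Class I members (decorin, biglycan, asporin) and class II members (lumican, fibromodulin, prolargin, osteomodulin) are the best known collagen binders.

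All 9 genes were detected in every library, although the cells had been isolated as epithelium. The 8 listed epithelial markers summed to between 898 and 1955 TPM, with Epcam between 128 and 232 TPM. They were not all high, and Krt19 was between 1.27 and 11.6 TPM. Decorin (Dcn) was at 107 TPM or more in each library. Trp63, the targeted gene, measured 1.59, 0.816 and 1.76 TPM in the knockout libraries in turn, against 3.48, 1.85 and 3.68 TPM in the wild-type libraries, without overlap (limma adjusted p = 0.27). Knockout library 3 stood apart from the others, with 10634 genes at 1 TPM or more against 11129 to 11235. Its median difference from the wild-type mean over all tested genes was -0.29 on the log2 scale, against 0.27 and 0.24 in knockout libraries 1 and 2. The members' results are given without it where that changed a call. Of the other listed genes chosen by rule for naming below, 30 did not pass with all libraries. Without this library 19 of these passed (16 lower and 3 higher), in a fit in which 5127 of 11268 genes passed (1318 lower and 3809 higher).

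Fibromodulin (Fmod) fell in the knockout, and it was the only 1 of the 9 genes to pass the test over all genes. Lum, Ogn, Bgn and Aspn had lower mean levels in the knockout by 2.40 to 4.38 times, but with a wider spread between libraries, and they did not pass. Prelp, Omd and Dcn differed less, and Podn was at the same mean level within its spread. The test was limma's linear model on log2(TPM + 1), with Benjamini-Hochberg adjustment over the 11268 genes that reached 1 TPM in at least 3 libraries. By this test 1 of 9 members was lower and 0 were higher, while 0.319% of all tested genes were lower. All 9 passed the filter on low values, Fmod through all wild-type libraries and 1 knockout library. Knockout and wild-type values were apart for 6 of 9 members, each lower in the knockout, against 15.6% of all tested genes. Without knockout library 3, 4 of 9 members passed, all lower in the knockout (Fmod, Lum, Ogn and Aspn). In that fit 5127 of the 11268 genes passed, 1318 of them lower and 3809 higher. At an unadjusted p of 0.05, with all libraries, 7 of 9 members were lower, against 10.5% of all tested genes. The median log2 fold change was -1.30 over the 9 members and 0.09 over all tested genes. For a single gene, an exact two-sided permutation test of 3 libraries against 3 cannot give less than p = 0.1, and it gave that value for each of the 6 members without overlap.

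**Figure D1:**
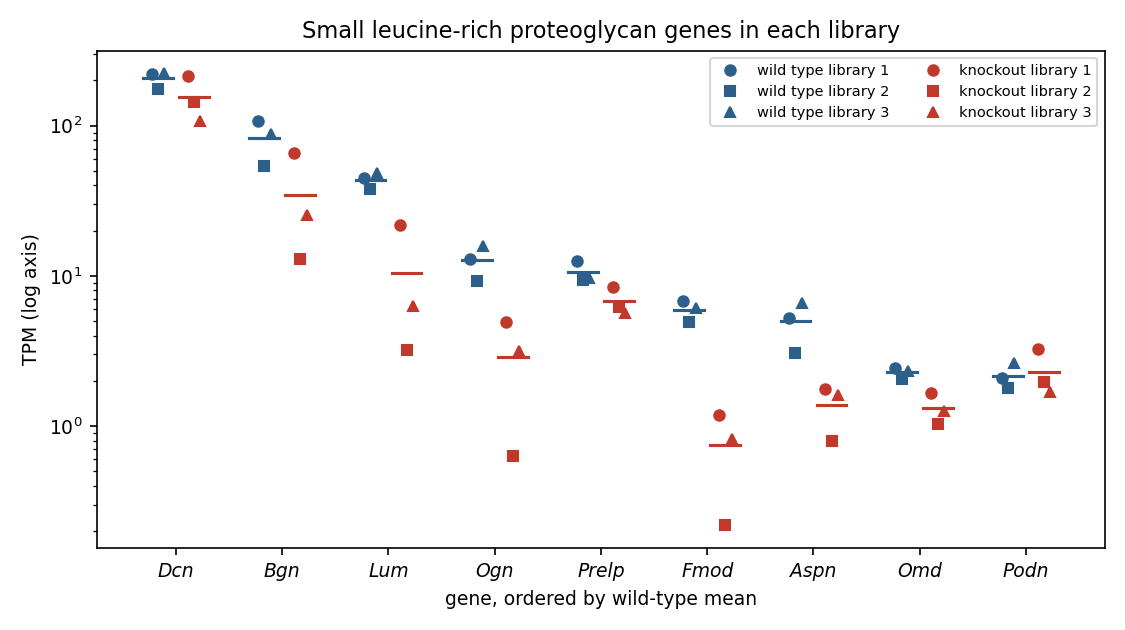
TPM of each gene (log axis) in the 3 wild-type libraries (blue) and the 3 knockout libraries (red), with symbols for library numbers and a bar at each group mean. The groups are apart for Lum, Ogn, Prelp, Fmod, Aspn and Omd, and they overlap for Dcn, Bgn and Podn.

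Fibromodulin binds collagen I through its repeats and takes part in fibril assembly. Its level was 1.19, 0.219 and 0.822 TPM in knockout libraries 1, 2 and 3 and 6.81, 4.94 and 6.09 TPM in wild-type libraries 1, 2 and 3. Every knockout library was thus below every wild-type library, with a clear gap between the groups. The means were 0.745 ± 0.492 TPM and 5.95 ± 0.939 TPM (SD, n = 3 each), a ratio of 7.99 between wild type and knockout. The log2 fold change was -2.03 (SE 0.27, limma adjusted p = 0.036). The call held in 7 of 16 alternative analyses (adjusted p 0.00058 to 0.23) and was lost without any single library except knockout library 3, while the log2 fold change stayed between -3.05 and -1.79.

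The bases before the RefSeq start site of Fmod are shown because it is the member that passed. The stretch lies at chr1:134037004-134037253 on the plus strand of GRCm38.p6, a later build than the mm9 genome on which the TPM values rest. Capitals mark matches to CAGAC, the core of the SMAD box read by the effectors of TGF-beta and activin signalling, on either strand.
Fmod: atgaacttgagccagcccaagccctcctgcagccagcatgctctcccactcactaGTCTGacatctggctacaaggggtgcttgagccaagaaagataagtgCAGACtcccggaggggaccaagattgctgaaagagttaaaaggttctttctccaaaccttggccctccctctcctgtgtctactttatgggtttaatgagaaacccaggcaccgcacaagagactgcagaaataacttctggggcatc
Such a match is common, being present in 42.2% of the 32851 RefSeq promoter windows of the same 250 bases. The 2 matches in Fmod begin 195 and 148 bases before the start site. Prelp, which did not pass, also held a match, beginning 161 bases before its start site.

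The other class II members also had lower values in the knockout, but none passed. Lumican (Lum), which carries keratan sulfate chains in the cornea and binds fibrillar collagen, was at 21.7, 3.22 and 6.27 TPM in knockout libraries 1, 2 and 3. It was at 44.7, 37.8 and 48.4 TPM in wild-type libraries 1, 2 and 3. The groups did not overlap, but knockout library 1 held several times the level of knockout library 2. The log2 fold change of Lum was -2.32 (SE 0.56, 95% interval -3.62 to -1.03, limma adjusted p = 0.11). Without knockout library 3 it passed (log2 fold change -2.18, limma adjusted p = 0.025), and without knockout library 1 it passed as well (-3.00, adjusted p = 0.048).

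Prolargin (Prelp), an anchor between basement membranes and underlying connective tissue, was at 8.38, 6.20 and 5.70 TPM in knockout libraries 1, 2 and 3 and at 12.6, 9.39 and 9.67 TPM in wild-type libraries 1, 2 and 3. The highest knockout value was close below the lowest wild-type value. Its log2 fold change was -0.58 (SE 0.24, limma adjusted p = 0.31). Osteomodulin (Omd), an acidic member known from mineralised tissue, measured 1.66, 1.03 and 1.25 TPM in knockout libraries 1, 2 and 3, against 2.45, 2.07 and 2.32 TPM in wild type. These groups were apart too, though all values were low. Its log2 fold change was -0.51 (SE 0.19, limma adjusted p = 0.27).

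None of the class I members passed the test. Decorin, the most abundant member and a binder of TGF-beta, was at 213, 144 and 107 TPM in knockout libraries 1, 2 and 3 and at 221, 176 and 223 TPM in wild-type libraries 1, 2 and 3. Knockout library 1 lay inside the wild-type range, so the groups overlapped. The log2 fold change of Dcn was -0.47 (SE 0.28, 95% interval -1.11 to 0.17, limma adjusted p = 0.42). Biglycan (Bgn), a close relative of decorin that also signals through Toll-like receptors, was at 66.0, 13.0 and 25.3 TPM in the knockout and at 108, 54.3 and 87.7 TPM in wild type. Here knockout library 1 again overlapped wild-type library 2, while the other knockout libraries were lower than all wild-type libraries. The log2 fold change of Bgn was -1.48 (SE 0.55, 95% interval -2.76 to -0.20, limma adjusted p = 0.27). It was -0.95 without knockout library 2 and -2.08 without knockout library 1, and it passed in neither fit (adjusted p = 0.54 and 0.12).

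Asporin (Aspn), which carries a run of aspartates and binds collagen and TGF-beta, was at 1.77, 0.799 and 1.60 TPM in knockout libraries 1, 2 and 3. It was at 5.22, 3.05 and 6.65 TPM in wild-type libraries 1, 2 and 3. The groups did not overlap, and the wild-type values were spread more widely than the gap between the groups. The log2 fold change of Aspn was -1.30 (SE 0.30, limma adjusted p = 0.10). It passed without knockout library 3 (-1.37, adjusted p = 0.011).

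The class III member osteoglycin (Ogn, also called mimecan) was at 4.92, 0.630 and 3.15 TPM in knockout libraries 1, 2 and 3 and at 13.0, 9.28 and 15.8 TPM in wild-type libraries 1, 2 and 3. All knockout values were below all wild-type values, with knockout library 2 far below the others. The log2 fold change of Ogn was -1.97 (SE 0.47, limma adjusted p = 0.11), and without knockout library 3 it passed (-2.11, adjusted p = 0.014). The class V member podocan (Podn) was at 3.27, 1.98 and 1.68 TPM in the knockout and at 2.08, 1.79 and 2.62 TPM in wild type. The groups overlapped fully, and the log2 fold change was 0.04 (SE 0.24, 95% interval -0.52 to 0.61, limma adjusted p = 0.93). Its sign turned in 3 of 16 alternatives, so no direction was given to it.

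**Figure D2:**
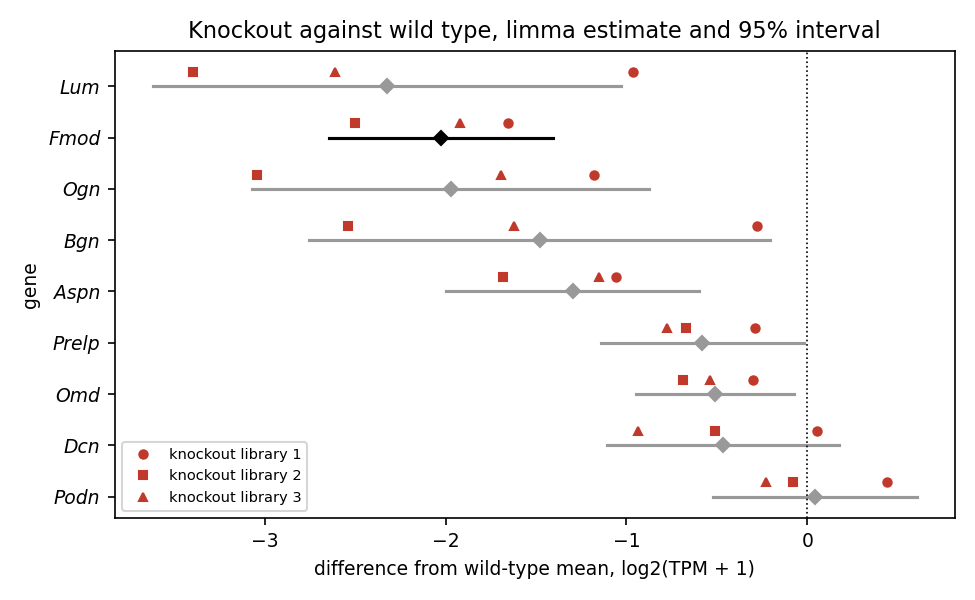
Difference between knockout and wild type in log2(TPM + 1) for each gene, with the limma estimate (diamond), its 95% interval (line; black where the adjusted p was under 0.05) and each knockout library against the wild-type mean (red symbols). Fmod alone is black, at -2.03. Podn and Dcn have intervals that include 0.

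The knockout libraries were ordered alike over the family. Knockout library 1 had the highest knockout value for 9 of 9 genes, and knockout library 2 the lowest for 6 of 9. The median difference of the 9 genes from the wild-type mean was -0.30, -1.68 and -1.15 in knockout libraries 1, 2 and 3. Among the wild-type libraries, library 2 had the lowest value for 9 of 9 genes. Products of neighbouring salivary glands, summed over 4 listed genes, were highest in knockout library 1 (5258 TPM) and wild-type library 2 (5868 TPM) and lay between 57.3 and 938 TPM in the others. Their part in these differences between libraries was not tested.

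The order of levels within the family differed between the groups. In wild type the means ran from Dcn (207 TPM) through Bgn (83.3), Lum (43.6), Ogn (12.7), Prelp (10.6), Fmod (5.95), Aspn (4.97) and Omd (2.28) to Podn (2.16). The ranges of Ogn and Prelp, of Fmod and Aspn, and of Omd and Podn overlapped, and those of the other neighbours in this order did not. In the knockout the order was Dcn (155 TPM), Bgn (34.8), Lum (10.4), Prelp (6.76), Ogn (2.90), Podn (2.31), Aspn (1.39), Omd (1.31) and Fmod (0.745). There the ranges of neighbours were apart only for Dcn and Bgn and for Prelp and Ogn. Fmod thus went from the sixth place to the last.

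Summed over the 9 genes, the family reached 322, 171 and 153 TPM in knockout libraries 1, 2 and 3 and 416, 298 and 402 TPM in wild-type libraries 1, 2 and 3. Most of this sum was decorin. Its share was 66.2%, 84.2% and 70.0% in the knockout libraries and 53.2%, 58.9% and 55.5% in the wild-type libraries, without overlap. The share of Lum was 6.74%, 1.88% and 4.11% in the knockout and 10.7%, 12.7% and 12.0% in wild type. The decorin share was thus higher, and the Lum share lower, in every knockout library, while the family totals overlapped, knockout library 1 lying above wild-type library 2.

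The ratio of 2 genes within a library does not depend on how the library was scaled, so each member was also set against decorin. Fmod stood at 0.559, 0.152 and 0.769 TPM per 100 TPM of Dcn in knockout libraries 1, 2 and 3, and at 3.08, 2.81 and 2.73 in wild-type libraries 1, 2 and 3. Lum stood at 10.2, 2.24 and 5.87 per 100 TPM of Dcn in the knockout and at 20.2, 21.5 and 21.7 in wild type. The wild-type ratios of these genes lay close together, while the knockout ratios were lower and scattered. In log2 units the ratio to Dcn was lower in the knockout by 2.83 for Fmod (SE 0.72), 2.07 for Ogn (SE 0.87), 2.05 for Lum (SE 0.64) and 1.38 for Aspn (SE 0.47), each without overlap. Podn was the reverse, with a ratio to Dcn higher by 0.52 (SE 0.11) and also without overlap. The ratios of Bgn, Omd and Prelp to Dcn overlapped between the groups. Of the 8 ratios computed, these 5 reached p = 0.1, the smallest that the exact two-sided permutation test allows (adjusted p = 0.16 over the 8), so no difference in ratio could pass a threshold of 0.05.

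**Figure D3:**
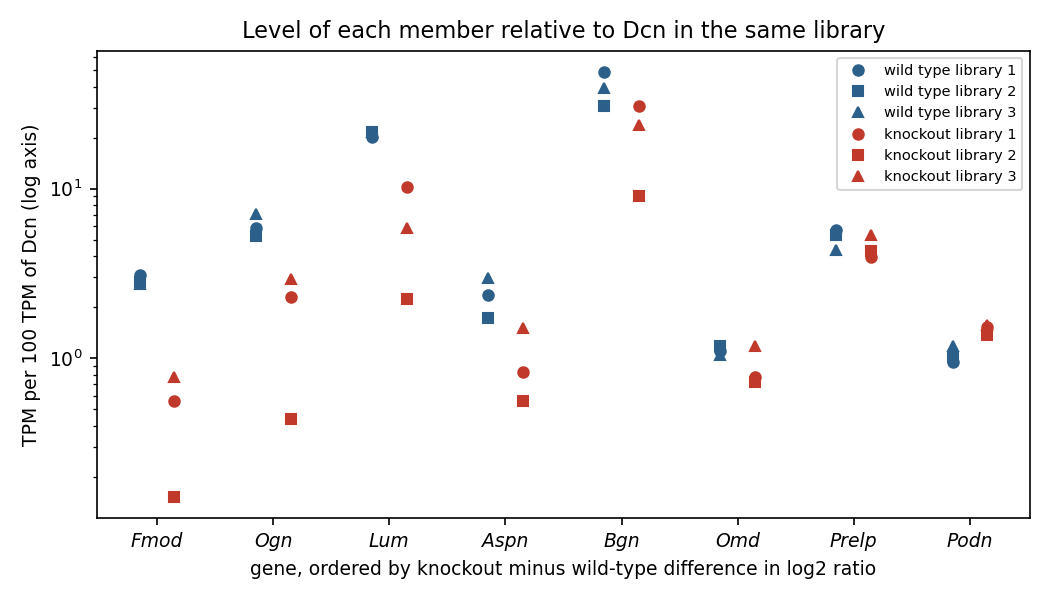
TPM of each member per 100 TPM of Dcn in the same library (log axis), for wild-type (blue) and knockout (red) libraries, ordered by the difference in log2 ratio. The ratios of Fmod, Ogn, Lum and Aspn are lower in every knockout library, those of Bgn, Omd and Prelp overlap, and those of Podn are higher.

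Most members lie next to each other in the genome. In RefSeq's annotation Dcn and Lum are neighbouring coding genes on chromosome 10, Prelp and Fmod on chromosome 1, and Aspn, Omd and Ogn follow each other on chromosome 13, while Bgn is on chromosome X and Podn on chromosome 4. In each cluster the neighbours had log2 fold changes of unlike size. Lum per Dcn is given above, at a log2 difference of -2.05. The ratio of Fmod to Prelp was 0.142, 0.0353 and 0.144 in knockout libraries 1, 2 and 3 and 0.538, 0.527 and 0.630 in wild-type libraries 1, 2 and 3, a log2 difference of -2.65 (SE 0.68). Ogn was at 2.97, 0.610 and 2.51 times Omd in the knockout and at 5.33, 4.49 and 6.78 times in wild type (-1.72, SE 0.74). Aspn was at 1.07, 0.773 and 1.28 times Omd in the knockout and at 2.13, 1.48 and 2.86 times in wild type (-1.03, SE 0.35). The groups were apart for all 4 adjacent pairs, and each had p = 0.1 by the exact two-sided permutation test (adjusted p = 0.1 over the 4), the smallest possible.

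The stretches before the start sites of the chromosome 13 genes are shown because Omd sits between Aspn and Ogn and had a smaller log2 fold change than either. They are the 250 bases upstream in GRCm38.p6, all on the plus strand, at chr13:49544193-49544442 for Aspn, chr13:49582212-49582461 for Omd and chr13:49607765-49608014 for Ogn. Capitals mark matches on either strand to TATAAA, the letters of the TATA box, and in Ogn also to CATTCC, the site of the TEAD factors.
Aspn: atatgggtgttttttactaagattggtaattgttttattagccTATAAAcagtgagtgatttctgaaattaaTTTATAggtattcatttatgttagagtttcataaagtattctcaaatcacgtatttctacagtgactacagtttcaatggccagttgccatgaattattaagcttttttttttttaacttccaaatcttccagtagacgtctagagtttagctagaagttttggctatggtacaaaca
Omd: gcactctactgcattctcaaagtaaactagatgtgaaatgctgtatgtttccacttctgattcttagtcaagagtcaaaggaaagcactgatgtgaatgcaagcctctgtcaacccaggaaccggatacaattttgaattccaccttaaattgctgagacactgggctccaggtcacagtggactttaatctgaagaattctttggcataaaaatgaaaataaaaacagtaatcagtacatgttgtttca
Ogn: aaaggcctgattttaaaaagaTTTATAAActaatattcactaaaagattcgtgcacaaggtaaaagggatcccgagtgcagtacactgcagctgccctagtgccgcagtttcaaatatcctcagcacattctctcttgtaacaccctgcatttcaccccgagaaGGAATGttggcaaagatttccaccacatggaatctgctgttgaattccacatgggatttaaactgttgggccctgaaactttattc
In Ogn the capitals TTTATAAA hold a match on each strand, which overlap. These matches begin 229 and 227 bases before the start site, and the TATAAA matches of Aspn 207 and 178 bases before it. Whether any of them acts as a TATA box was not tested. Across all promoter windows of this length 12.4% hold TATAAA and 12.6% hold CATTCC. Windows were found for 7 of the 9 members. Searches for the AP-1 site TGANTCA (6.75% of all windows), the half-site of the p53 family, to which p63 belongs (7.13%), and the CArG box (1.47%) found no match in the windows of these 7. The GC content of the windows was 51.2% for Fmod, lower for Ogn (42.0%), Omd (38.4%) and Aspn, the lowest of the 7, and higher for Prelp (55.6%), Bgn (64.4%) and both windows of Podn (64.0% and 78.0%).

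Among 8 further genes of leucine-rich repeat proteoglycans, Chad and Tsku passed the filter and neither passed the test. Tsukushi (Tsku), a secreted inhibitor of BMP and TGF-beta family signals, was at 0.271, 0.397 and 1.62 TPM in knockout libraries 1, 2 and 3 and at 3.02, 2.83 and 2.85 TPM in wild-type libraries 1, 2 and 3. The groups were apart (log2 fold change -1.22, SE 0.29, limma adjusted p = 0.11), and knockout library 3 was nearest to wild type. Chondroadherin (Chad), a cartilage protein that binds collagen and integrin, overlapped between the groups (-0.48, SE 0.30, limma adjusted p = 0.44). Epyc missed the filter, with 0.0733, 0 and 0.182 TPM in knockout libraries 1, 2 and 3 against 1.21, 0.476 and 1.42 TPM in wild-type libraries 1, 2 and 3.

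The collagens that these proteoglycans coat had lower values in the knockout in each of the 9 genes that could be tested. Of 12 listed collagen genes 9 were tested, and 2 were lower by limma and 0 higher, against 0.319% of all tested genes lower. The values of all 9 were lower in the knockout without overlap, against 15.6% of all tested genes. Col5a1 and Col6a3 passed the filter on low values through the wild-type libraries alone, so their lack of overlap followed from how they passed. The median log2 fold change was -1.90. Col3a1, the fibrillar collagen of loose connective tissue, fell from 33.7 ± 6.73 TPM to 3.61 ± 2.22 TPM (SD, n = 3 each), with a log2 fold change of -3.05 (SE 0.43, limma adjusted p = 0.044). Col6a3, a chain of the beaded filament collagen that biglycan and decorin bind, fell by 1.39 on the log2 scale (SE 0.18, limma adjusted p = 0.034). The calls of Col3a1 and Col6a3 were lost in 8 of 17 and 11 of 16 alternatives. Summed over the list, collagen transcripts were at 31.9, 6.81 and 19.02 TPM in knockout libraries 1, 2 and 3 and at 119, 84.3 and 94.99 TPM in wild-type libraries 1, 2 and 3. The lowest of these sums was again in knockout library 2.

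The genes that build the sugar chains had medians nearer to 0. For the counts below, the share of all tested genes lower at an unadjusted p of 0.05 was 10.5%. One list of 10 genes covered the linker, which starts the chain on the core protein, and the makers of sugar and sulfate donors. Of these 7 were tested and 0 passed (1 lower at an unadjusted p of 0.05), with a median log2 fold change of -0.003. B3galt6, a linker galactosyltransferase, averaged 1.25 ± 0.861 TPM over the knockout and 2.84 ± 0.545 TPM over the wild-type libraries (limma adjusted p = 0.24). Papss1, which makes the sulfate donor, was at 71.7 ± 12.7 and 97.3 ± 4.37 TPM (limma adjusted p = 0.33). Of 16 genes for chondroitin and dermatan sulfate 12 were tested and 0 passed (3 lower and 1 higher at an unadjusted p of 0.05), with a median of -0.27. Chst13, a chondroitin sulfotransferase, was at 2.68, 1.56 and 4.27 TPM in the knockout and at 11.6, 9.93 and 10.6 TPM in wild type, with the groups far apart (log2 fold change -1.67, SE 0.30, limma adjusted p = 0.065). Dse, the epimerase that turns chondroitin into dermatan sulfate, was at 0.735 ± 0.225 and 1.37 ± 0.149 TPM (limma adjusted p = 0.28). Dse and Chst12, both among the 3 lower genes of this list, passed the filter on low values through the wild-type libraries alone. Of 9 genes for keratan sulfate 4 were tested and 0 passed (0 at an unadjusted p of 0.05), with a median of -0.20. B4galt1 and B4galt4, galactosyltransferases that extend these chains, had log2 fold changes of 0.92 and -0.33 (limma adjusted p = 0.40 and 0.44).

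Among 15 listed ligands, receptors and matrix partners of the family, 13 were tested and 0 passed, with a median of -0.18. At an unadjusted p of 0.05, 2 were lower and 1 higher, against 10.5% of all tested genes lower. Tgfb2, a TGF-beta ligand that the family binds, was at 10.7, 11.6 and 27.1 TPM in knockout libraries 1, 2 and 3 and at 72.9, 79.8 and 63.6 TPM in wild-type libraries 1, 2 and 3. Its groups were far apart (log2 fold change -2.18, SE 0.35), but it did not pass (limma adjusted p = 0.057). It passed in 2 of 17 alternatives (adjusted p 0.00022 to 0.26), 1 of them the fit without knockout library 3 (log2 fold change -2.58, adjusted p = 0.00022). Tgfb3 was at 4.74 ± 1.27 and 9.16 ± 2.50 TPM (limma adjusted p = 0.25). Of 24 other proteoglycan genes 11 were tested and 0 passed (1 lower at an unadjusted p of 0.05), with a median of 0.03. Among them the syndecan Sdc3 was at 1.36 ± 0.0371 and 2.69 ± 0.0501 TPM (limma adjusted p = 0.14), and Tgfbr3, the TGF-beta co-receptor betaglycan, was at 5.79 ± 2.40 and 3.05 ± 0.104 TPM (limma adjusted p = 0.34). Of 10 proteases that cut the family or its propeptides 5 were tested and 0 passed (1 lower at an unadjusted p of 0.05). Bmp1, which trims the propeptides of decorin, biglycan and fibrillar collagens, was at 4.16 ± 1.17 and 8.13 ± 0.596 TPM (limma adjusted p = 0.17), and Htra1 was at 5.08 ± 3.21 and 8.02 ± 1.29 TPM (limma adjusted p = 0.39).

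Markers of the cells that could supply these transcripts were read in the same libraries. In bulk RNA, fewer cells of a type and less RNA per cell cannot be told apart. Of 18 fibroblast markers 16 were tested, 0 passed (6 lower and 1 higher at an unadjusted p of 0.05), and 4 were lower without overlap, with a median of -0.64. Over all tested genes, 10.5% were lower at that unadjusted p and 15.6% were lower without overlap. Their summed level was 162 to 310 TPM in the knockout and 267 to 354 TPM in wild type. Tcf21 was listed at 0 in every library but wild-type library 2 (0.0556 TPM). The markers differed among themselves. Lox, the lysyl oxidase that crosslinks collagen, was the 1 marker higher in the knockout without overlap, at 16.1, 5.44 and 2.04 TPM in knockout libraries 1, 2 and 3 and at 1.16, 0.550 and 0.542 TPM in wild-type libraries 1, 2 and 3. It did not pass (log2 fold change 2.01, SE 0.56, limma adjusted p = 0.16). The fibroblast receptor gene Pdgfra was at 12.7, 4.99 and 3.77 TPM in knockout libraries 1, 2 and 3 and at 8.05, 4.99 and 6.67 TPM in wild-type libraries 1, 2 and 3, with full overlap (log2 fold change -0.03, SE 0.41, limma adjusted p = 0.98). The surface marker Thy1 was at 0.649 ± 0.217 and 2.34 ± 0.750 TPM (limma adjusted p = 0.092), and the matrix gene Ccdc80 was at 0.845 ± 0.371 and 2.75 ± 0.281 TPM (limma adjusted p = 0.077). Thy1 passed the filter on low values through the wild-type libraries alone. The family's sum was 1.04, 0.97 and 0.943 times the sum of the fibroblast markers in knockout libraries 1, 2 and 3 and 1.18, 1.12 and 1.14 times that sum in wild-type libraries 1, 2 and 3. Without Dcn and without the abundant marker Mgp, the same ratio was 1.12, 0.786 and 1.02 in knockout libraries 1, 2 and 3. It was 1.60, 1.83 and 1.97 in wild-type libraries 1, 2 and 3. Both ratios were lower in every knockout library, by less for the full sums, and the part of fibroblast number in the differences of the family was not tested.

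Pericyte and smooth muscle markers summed to 37.6 to 58.3 TPM in the knockout and 79.5 to 90.0 TPM in wild type, and 0 of 8 passed (2 lower at an unadjusted p of 0.05, Mcam and Myh11, with limma adjusted p = 0.092 and 0.11). Endothelial markers summed to 21.7 to 32.6 and 32.9 to 34.4 TPM, and 0 of 8 tested passed (3 lower at an unadjusted p of 0.05, with Emcn and Egfl7 at limma adjusted p = 0.15 and 0.18). Their log2 fold changes were negative for 4 and positive for 4, with a median of -0.05. Tek, also among the 3 lower, passed the filter on low values through the wild-type libraries alone. Macrophage markers summed to 174 to 276 and 455 to 521 TPM, and 0 of 7 tested passed (4 lower at an unadjusted p of 0.05, with H2-Aa and Lyz2 both at limma adjusted p = 0.059). All 7 log2 fold changes were negative, and 4 of these markers were lower without overlap. Wild-type means of Cd74, H2-Aa and Lyz2 were 147, 147 and 94.2 TPM, against knockout means of 49.2, 35.6 and 43.7 TPM. Cd68, C1qa and C1qb overlapped between the groups, with log2 fold changes of -0.60, -0.13 and -0.25. The macrophage sums therefore do not stand for every marker of that list. Adipocyte markers summed to 41.5 to 249 and 84.6 to 286 TPM, with 0 of 5 tested passing (1 lower at an unadjusted p of 0.05, Adipoq at limma adjusted p = 0.30, and Plin1 at 0.36). Schwann cell markers summed to 36.6 to 98.0 and 34.8 to 39.7 TPM, with 0 of 5 passing (1 lower, S100b, and 1 higher, Sox10, at an unadjusted p of 0.05). Among basal and myoepithelial markers, which summed to 92.7 to 181 and 288 to 395 TPM, 2 of 5 tested fell, namely Krt14 (log2 fold change -1.97, SE 0.27, limma adjusted p = 0.037) and Cnn1 (-1.73, SE 0.22, limma adjusted p = 0.035), calls that were lost in 11 and 10 of 17 alternatives. Epithelial markers summed to 898 to 1955 and 1193 to 1403 TPM, with 0 of 8 passing (2 lower at an unadjusted p of 0.05, Krt7 and Krt19, with limma adjusted p = 0.099 and 0.085). Among the epithelial markers 4 log2 fold changes were negative and 4 positive, with a median of 0.04. Of the neighbouring gland genes 3 were tested and 0 passed (0 at an unadjusted p of 0.05), with Bpifa2 and Prpmp5 at limma adjusted p = 0.53 and 0.64. For these counts, the shares of all tested genes were 10.5% lower at an unadjusted p of 0.05 and 0.319% lower after adjustment. The part of any of these cells in the family's values was not tested.

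**Figure D4:**
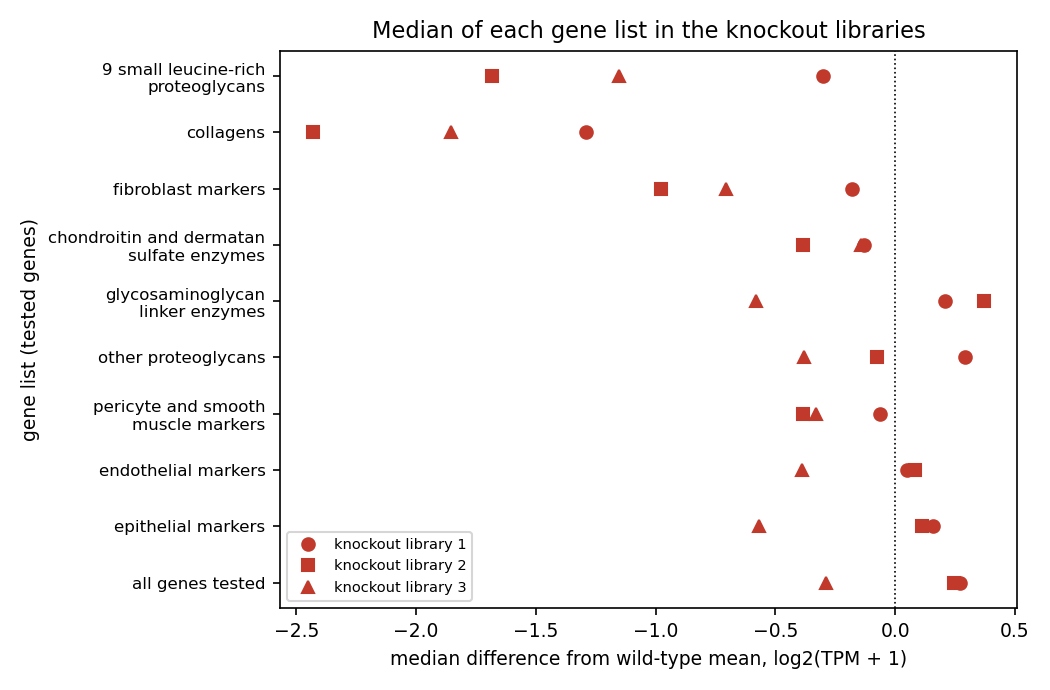
Median difference from the wild-type mean in log2(TPM + 1), over the tested genes of each list, in knockout libraries 1, 2 and 3. The 9 proteoglycan genes are at -0.30, -1.68 and -1.15, and the collagens lie further to the left. The libraries keep the same order in the proteoglycans, collagens and fibroblast markers. They also keep it in the pericyte and smooth muscle markers and the chondroitin and dermatan sulfate enzymes. The adipocyte markers (0.16, -1.84 and -1.42) and the neighbouring gland genes (1.62, -1.93 and -1.43), neither drawn, have this order too.

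Genes with the most similar pattern were found from log2(TPM + 1) values centred on each gene's mean over the 6 libraries, by Euclidean distance. The values were not scaled, so the distance also counts the size of each gene's differences. Nearest to Dcn were Xk (distance 0.15), Lamc3 (0.18) and Lama2 (0.19), of which the last pair encode laminin chains of basement membranes. Nearest to Bgn were Serpinf1 (0.35), a secreted serpin and listed fibroblast marker, Cd74 (0.52), the class II invariant chain of antigen-presenting cells, and Vim (0.68), the intermediate filament of mesenchymal cells. Serpinf1 was at 19.1, 4.56 and 8.39 TPM in knockout libraries 1, 2 and 3 and at 43.0, 19.3 and 29.3 TPM in wild-type libraries 1, 2 and 3. Within the family, Ogn was nearest to Bgn (distance 0.95, rank 12 of all tested genes), and Prelp was nearest to Dcn (0.48, rank 196). Dcn and Lum, neighbours in the genome, were far apart by this measure (2.64, rank 10989), with log2 fold changes of -0.47 and -2.32. Whether their patterns were alike apart from this size was not tested.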

How the data were processed

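RNA-seq was analysed from 3 p63 knockout and 3 wild-type samples, grouped by the genotype label. Per the labels, the authors derived the deposited TPM values from raw counts, with gene length and library size taken into account. Per the submitters' processing notes, the genome was mm9 and the tools included DESeq2 1.20.0, featureCounts 1.5.1, TopHat2 2.1.1 and Bowtie2 2.2.6. The sources used here give neither the annotation nor the strand setting. Each column summed to 1000000, so depth was unknown, and no counting interval was given.

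Values were analysed as log2(TPM + 1), a scale that understates changes of low genes, with limma 3.58.1 (empirical Bayes with mean-variance trend) in R 4.3.3. The test covered the 11268 genes that reached 1 TPM in 3 or more libraries, with Benjamini-Hochberg adjustment over all of them and a threshold of 0.05. Exact permutation tests used SciPy 1.17.1. The procedure was tested on simulated data. The members and lists were chosen with earlier results of these data known. The ratios and motifs were chosen after the values were seen. Named genes were the members, other listed leucine-rich proteoglycans above the filter, up to 3 passing genes of each list or else the 2 with the smallest p, and the 3 nearest patterns to Dcn and Bgn. Epyc, Epcam, Pdgfra, Lox, Mgp and Tcf21 were named after their values were seen. So were Col5a1, Chst12, Notch3, Kcnj8, Abcc9, Tek, Cd68, C1qa and C1qb. The 17 alternatives covered pseudocounts, filters, scalings, limma settings, a block and each library left out. Promoters are from RefSeq (GRCm38.p6).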

Additional observations from a re-analysis of the deposited data

How the results depend on the processing

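Over the 17 alternatives, the members' median log2 fold change kept its direction and stayed between -1.57 and -0.95, and 3 of 149 single estimates turned sign, all of Podn. Podn was at -0.0089 after rescaling without the 50 most abundant genes, and with 1 library left out it ranged from -0.16 (without knockout library 1) to 0.18 (without knockout library 3), with -0.04 without wild-type library 2. The number of members called was 0 with pseudocounts of 0.1 and 0.5 TPM (Fmod adjusted p = 0.081 and 0.0504), with no filter (0.078), and after rescaling without the 50 most abundant genes (0.0502). It was also 0 with the filter of 5 TPM, which left 5 members to test and removed Fmod. It was 6 with array weights. Leaving out 1 library at a time gave 0 to 4 members, with 4 without knockout library 3 and 1 without knockout library 1, where Lum replaced Fmod. The number of all genes called was 44 (8 higher, 36 lower). It was 25 with a pseudocount of 0.1 TPM, 11 with no filter, 29 with the filter of 5 TPM, 72 after quantile normalization and 4822 (3477 higher, 1345 lower) with array weights. With 1 library left out it ranged from 0 to 5127, the latter without knockout library 3 (3809 higher, 1318 lower). It was 0 without wild-type library 2 or 3 (1024 and 1020 genes at an unadjusted p of 0.05 in limma).

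A replicate block of libraries with neighbouring index numbers in their titles left the members called at 1 and gave 31 genes in all. The labels state no pairing. The deviations of the neighbouring libraries correlated at 0.17, 0.23 and 0.08 over all tested genes, and at 0.25, 0.54 and 0.41 over the 9 members, against -0.40 to 0.15 over the members for the other pairings. These are across genes, which are not independent replicates. The deviations were from each gene's mean in its group. A library that correlates positively with some library of the other group must therefore correlate negatively with another. The contrast with the other pairings is thus partly built in. The cause of these shifts was not tested. With 3 libraries a group and no depth, a difference as small as that of Dcn could not be told from the spread.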
